A study of Drosophila melanogaster with 81 samples.

Results

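The gustatory receptor genes of Drosophila melanogaster were taken as the protein-coding genes whose symbol is Gr followed by a number and a letter, 60 of the 13946 in the Release 6 gene table. They encode membrane receptors that work as ligand-gated channels in the taste hairs, the pharynx and some antennal and internal neurons. Different members detect carbon dioxide, sugars or bitter compounds, and several usually act together in a neuron. Chemosensory neurons form late in embryonic and in pupal development, so these are genes whose main cell types have not yet formed in the young embryo. Each member was read over the gene and 2 kb on each side, here called its window, in peak lists of 6 histone marks.

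The lists came from CUT&Tag on whole embryos, an assay where a transposase tethered to antibody-bound marks cuts and tags the DNA beside them. The compared embryos were w1118, a white-eyed laboratory stock, and HisC, homozygous for Df(2L)HisC, a deletion of the replication-dependent histone gene cluster, which leaves the embryo with the histones its mother supplied. In HisC embryos one copy of the deletion chromosome also bore P{GAL4-twi.2xPE}, a GAL4 driver under twist enhancers, and the other bore the reporter P{UAS:eYFP}AH2. HisC embryos were picked by that yellow fluorescence, and w1118 embryos had neither transgene. For the HisC H3K27me3 libraries of 4.5 to 5 h the genotype label names Df(2L)HisC alone. Embryos of both genotypes developed at the same temperature and were 4.5 to 5 h or 5.5 to 6 h old, counted from egg laying, and for H3K4me3 also 3.5 to 4 h. Each combination of mark, age and genotype had 1 list, pooled from 2 to 3 libraries, which gave 26 lists from 59 of the 81 libraries. A list had 4588 to 13436 peaks over 5.47 to 13.7 Mb.

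Pooled lists of positions hold no peak heights and no spread between replicates, so nothing below was tested, and HisC and w1118 are compared as counts beside the share of all 13946 genes that met the same rule. A window without a listed peak is not shown to lack the mark, since the depth is not known here. In whole embryos, a mark in few cells and a weak mark in all cells cannot be told apart.

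The 60 genes lay at 38 separate loci, of which 11 held more than 1 member and together 33 members. Chromosome arm 2L held 17 members, 2R 13, 3L 11, 3R 13 and the X 6. The median member was 1397 bp long and the median window 5397 bp, against 2161 bp and 6161 bp for all protein-coding genes. For 38 members the window reached another protein-coding gene, and 22 members had a window free of any. A peak in such a window can still extend from a gene beyond it, as one at Gr59b did from CG9877. The span of another gene held 7 members. Gr94a lay in p53, the fly homologue of the tumour suppressor, Gr39a in Mondo, a sugar-responsive transcription factor gene, and Gr47a in SLO2, a potassium channel gene. Gr10a lay in the span of the odorant receptor gene Or10a, Gr68a in loaf, Gr77a in CG13252 and Gr9a in CG15312. The members nearest to the deleted histone cluster were Gr39a and Gr39b, which ended 119267 and 47247 bp before it, and HisC lists held peaks in both windows.

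H3K27me3, the mark that Polycomb repressive complex 2 lays down at silenced genes, was listed over few gustatory receptor genes in w1118 and over many in HisC. In w1118 a peak touched 7 of the 60 windows at 4.5 to 5 h and 6 at 5.5 to 6 h, or 11.7% and 10% of members against 17.5% and 16.5% of all genes. In HisC it touched 26 and 31 windows, or 43.3% and 51.7% of members against 40.5% and 38.9% of all genes. The receptor genes thus lay below the background in w1118, near it in young HisC embryos and above it in older ones. Counted by locus, HisC did not rise with age, with 23 peaks at 18 of the 38 loci and then 22 peaks at 16. Some of these peaks touched the windows of several neighbouring members. The mean share of a window under H3K27me3 was 4.62% in w1118 and 7.16% in HisC at the younger age, and 3.86% and 12.6% at the older. Over all genes these means were 5.17% and 6.69%, then 5.00% and 7.76%.

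At both ages 17 members, at 11 loci, had an H3K27me3 peak in HisC and none in w1118, which was 28.3% of members against 18% of all genes. No member had the opposite at both ages, against 1.53% of all genes. At single ages the HisC-only members numbered 20 at 14 loci and 26 at 13 loci, or 33.3% and 43.3% against 26% and 25.4% of all genes. The w1118-only members numbered 1 and 1, or 1.67% at each age against 2.93% and 2.98%. The same 17 members were those with more covered bp in HisC at both ages, where all genes stood at 22.9%. Of the other large chemoreceptor families, 17 of 59 odorant and 27 of 60 ionotropic receptor genes had HisC-only peaks at both ages, so the gustatory share of 28.3% was close to the odorant one of 28.8%.

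The count of 17 depended on which peaks and bases were used. It was 8 within gene bodies alone (12% of all genes), 11 with peaks of at least 500 bp (14%) and 5 with equal numbers of the widest peaks from each list (9.53%), so these shares of members were nearer to the background, and the last was below it. It was 23 with 5 kb on each side (23.8%), 16 when at least 200 bp had to be covered (17.4%) and 14 in 5 kb around the gene midpoint (14.7%). Without bases in or within 500 bp of other genes it was 10, and the share of all genes was not counted for that rule. The HisC lists held more H3K27me3 peaks, 8320 and 8313 against 4605 and 4588, and in the receptor loci these were narrower, with median widths of 741 and 992.5 bp against 1501.5 and 1494 bp. The part of these list properties in the count was tested no further than by the recounts above. Of the 17 members, 6 had no other protein-coding gene in the window.

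**Figure D1:**
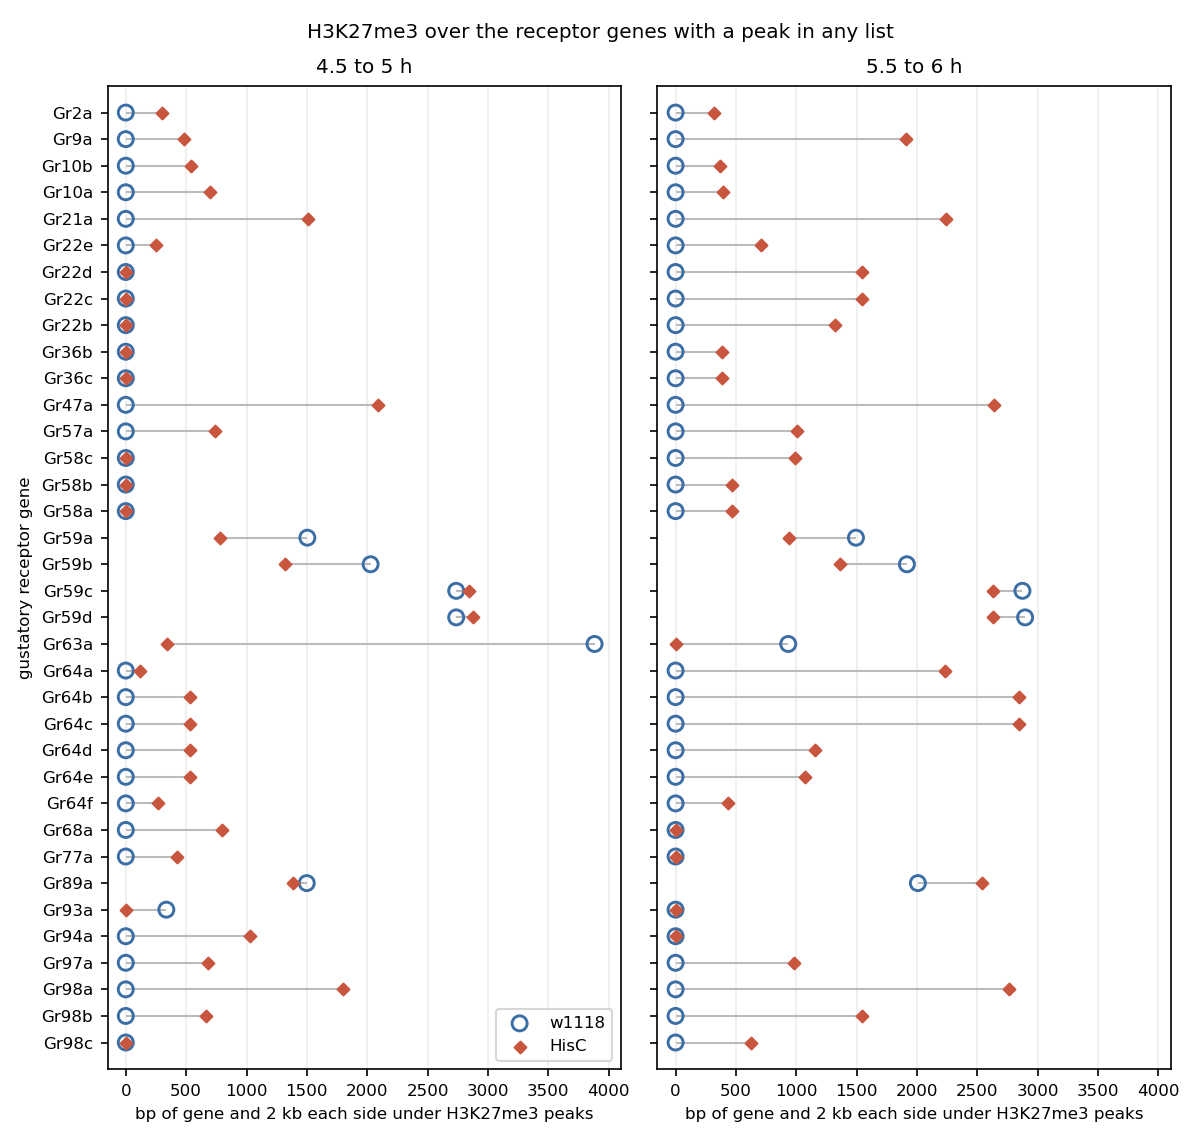
Base pairs of each window under H3K27me3 peaks (x axis) for the 36 gustatory receptor genes with a peak in any list, at 4.5 to 5 h (left) and 5.5 to 6 h (right). Open circles are w1118 and diamonds HisC, 1 pooled list each, joined by a line; most circles sit at 0, and the circle farthest to the right is Gr63a at 3883 bp.

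The carbon dioxide receptor is made of Gr21a and Gr63a, which are needed together in the same antennal neurons, and H3K27me3 differed in opposite directions at their genes. Gr21a (2L, 780482 to 782885) had 0 bp under H3K27me3 in both w1118 lists, and 1510 bp and then 2239 bp in HisC. Most of this lay on the receptor gene, with 950 bp and 1815 bp of its body covered, and the rest on the neighbours CG13947 and CG3544. Gr63a (3L, 3894999 to 3896603) had 3883 bp at 4.5 to 5 h and 933 bp at 5.5 to 6 h in w1118, where HisC had 340 bp and 0 bp. The earlier w1118 peak covered the whole gene body and 69.3% of the window, and it reached into Fie. The later one lay within the gene body.

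Other marks at Gr63a also differed between genotypes. H3K4me3, a mark of active promoters, covered 947 bp of the Gr63a window in w1118 at 3.5 to 4 h and 0 bp at the later ages, whereas HisC had 1824, 1720 and 2503 bp. These peaks lay on the neighbours Lamtor4, which encodes a subunit of the lysosomal Ragulator complex, and Ccz1, which encodes part of a Rab7 activator, and of the 3 HisC peaks the one at 5.5 to 6 h reached into Gr63a. H2BK16ac, an acetylated form of histone H2B, covered 1802 and 2687 bp in w1118, but 0 and 323 bp in HisC. H2AK9ac, an acetylated form of H2A, covered 1586 and 1332 bp in w1118, but 635 and 326 bp in HisC. H3K27ac had 90 and 1228 bp in w1118, with no peak in HisC. Ranked on whichever age differed less, Gr63a was the member lowest in HisC relative to w1118 for H3K27me3, H2AK9ac and H2BK16ac, and the highest for H3K4me3. The polyubiquitin gene Ubi-p63E lies next to Ccz1, and some of these H3K4me3 and H3K27ac peaks came within 500 bp of its end.

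**Figure D2:**
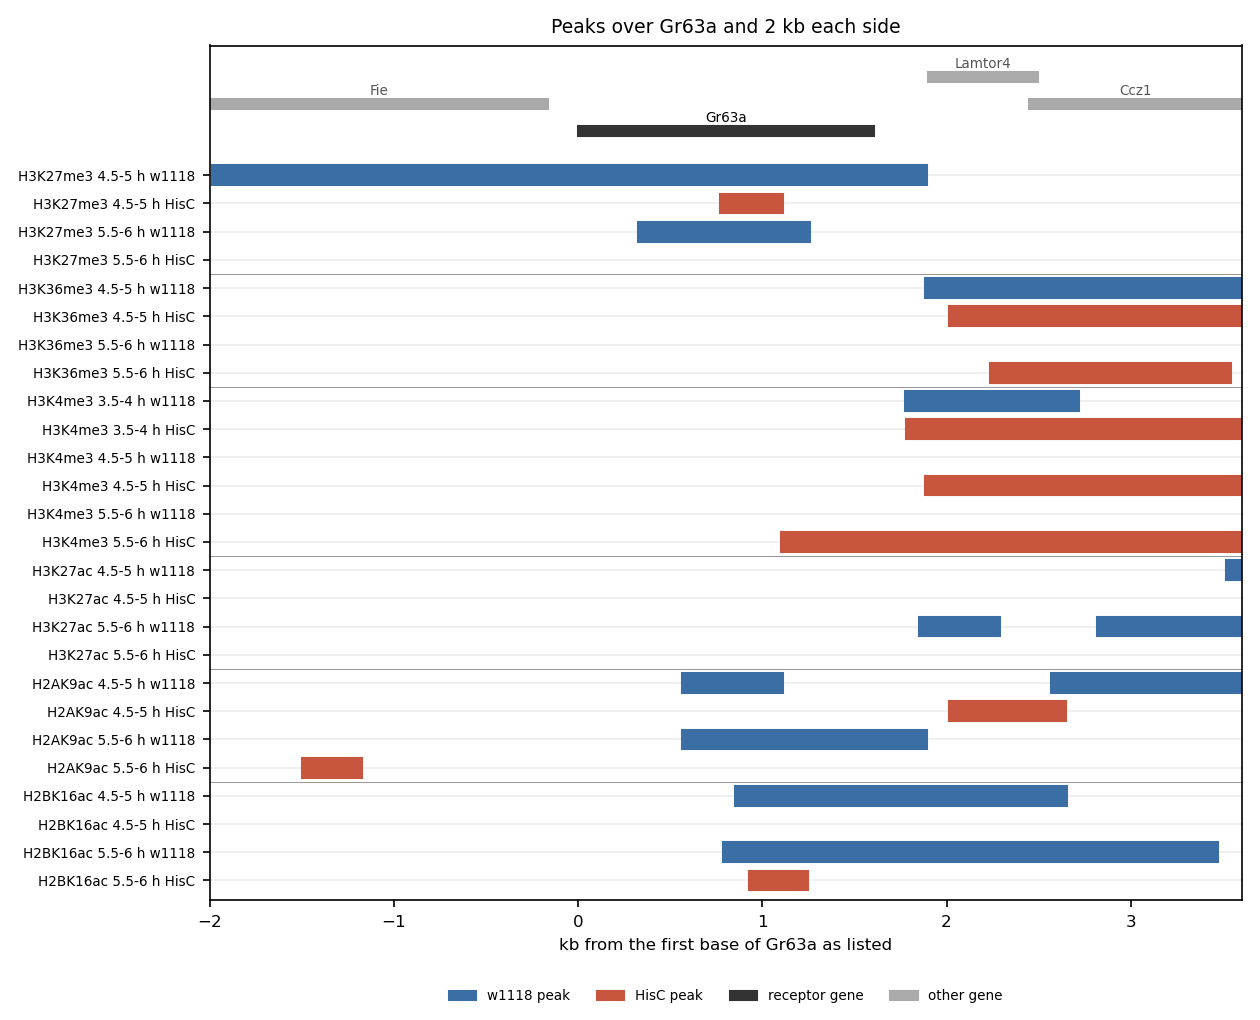
Peaks over Gr63a and 2 kb on each side, by mark, age and genotype, against the distance in kb from the first base of the gene (x axis). Blue bars are w1118 and red bars HisC, clipped at the window; H3K27me3 lies on Gr63a in both w1118 lists, and H3K4me3 at 4.5 to 5 h and 5.5 to 6 h is listed in HisC alone, mostly on Lamtor4 and Ccz1.

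None of the 9 sugar receptor genes had H3K27me3 in w1118, where 17.5% and 16.5% of all genes had it. In HisC 6 of the 9 had it at both ages, where 18% of all genes had HisC-only peaks at both ages. All 6 belong to the Gr64 cluster (3L, 4026769 to 4037575), a single locus whose members share peaks and are not 6 separate observations. Gr64b and Gr64c have identical listed coordinates. A HisC peak of 536 bp at 4.5 to 5 h lay on the Gr64b and Gr64c span, and at 5.5 to 6 h a peak of 2848 bp covered the same bases and reached back into Gr64a. Gr64f, whose product is a common co-receptor for sugars, had 266 and 430 bp, all of it on the neighbour CG11593. The trehalose receptor gene Gr5a, the fructose receptor gene Gr43a and the glucose receptor gene Gr61a had 0 bp in all 4 lists.

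Both spots of the Gr64 locus carried other marks in HisC. At 4.5 to 5 h the H3K27me3 peak of 536 bp overlapped an H3K4me3 peak of 481 bp, which was listed in HisC alone and had no counterpart at 3.5 to 4 h or 5.5 to 6 h. In the Gr64f window, H3K27ac covered 677 and 595 bp in HisC and H2BK16ac 621 and 602 bp, and w1118 had 0 bp of either. H3K4me3 there was 162, 175 and 432 bp in w1118 over the 3 ages, and 669, 687 and 683 bp in HisC. H3K36me3, the mark of transcribed gene bodies, ran from CG11593 into Gr64f in both genotypes, over 2357 and 2190 bp of the window in w1118 but 2900 and 2927 bp in HisC.

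**Figure D3:**
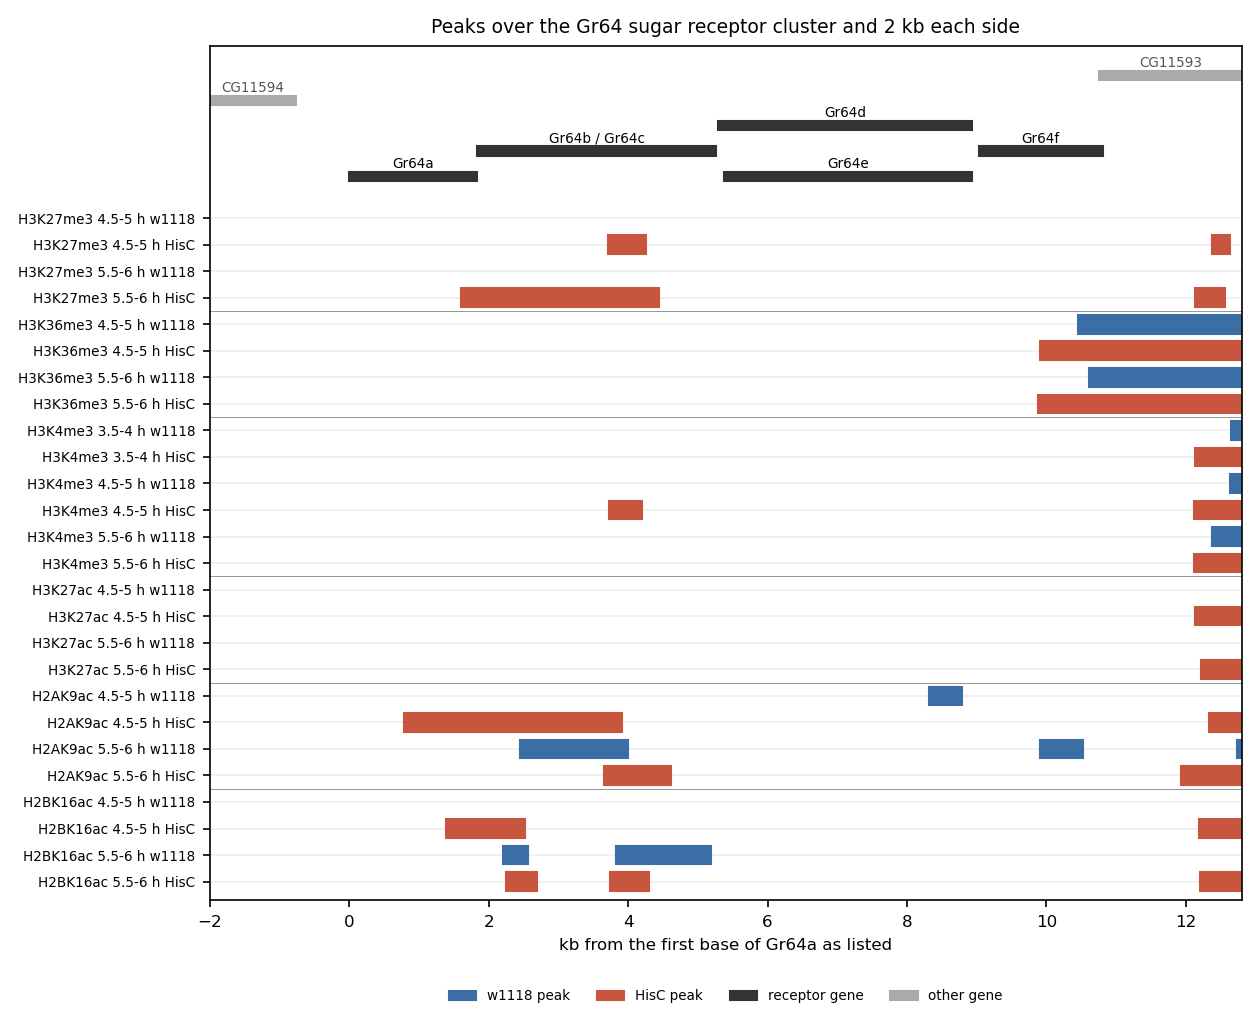
Peaks over the 6 sugar receptor genes of the Gr64 cluster and 2 kb on each side, against the distance in kb from the first base of Gr64a (x axis). Blue bars are w1118 and red bars HisC, clipped at the window; H3K27me3 is listed in HisC alone, on Gr64b and Gr64c and on CG11593 at the right edge, where peaks of other marks also lie.

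Of the 5 receptor genes found together in most bitter-sensing neurons, Gr32a, Gr33a, Gr39a, Gr66a and Gr89a, only Gr89a had H3K27me3, and in both genotypes. Gr89a (3R, 16497817 to 16498959) had 1499 and 2007 bp in w1118, where HisC had 1381 and 2537 bp. The peaks ran from the receptor gene into the caspase gene Decay. Gr33a, with no other protein-coding gene in its window, had no peak of any mark other than 358 bp of H2BK16ac in w1118 at 5.5 to 6 h. The Gr66a window, which holds Sbp2 and BI-1, had H3K4me3 of 825, 1215 and 1157 bp in w1118, but 652, 1406 and 1076 bp in HisC, with neither genotype higher at every age. Gr32a had 3086 and 3223 bp of H3K36me3 in w1118, on the receptor gene and CG6230, but 1817 and 1251 bp in HisC, where part lay on Idua on the other side.

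Receptors with other known roles were mixed. Gr98b, which acts with Gr8a and Gr66a in sensing the plant toxin L-canavanine, had 0 bp of H3K27me3 in w1118, and 666 and 1548 bp in HisC. Gr8a had none in any list. Gr68a, linked to male courtship, had 797 bp in HisC at 4.5 to 5 h only, inside loaf. Gr93a, needed to sense caffeine, had 336 bp in w1118 at 4.5 to 5 h only. Gr28b, the longest member at 7422 bp, which serves in heat and light sensing, had none.

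Among the remaining members, the most covered HisC-only windows were those of Gr47a and Gr98a. Gr47a (2R, 10362185 to 10363584) had 0 bp in w1118, but 2092 and 2637 bp in HisC, and the earlier peak covered all 1400 bp of the gene. Gr98a, with no other protein-coding gene in its window, had 0 bp in w1118, but 1802 and 2761 bp in HisC. Gr57a, also free of neighbours, followed with 741 and 1005 bp, and Gr97a with 683 and 980 bp on the tetraspanin gene Tsp97E. Another 12 members had H3K27me3 in HisC at a single age and in neither w1118 list, 20% against 12.3% of all genes. These were Gr68a, Gr77a and Gr94a at 4.5 to 5 h, and Gr22b, Gr22c, Gr22d, Gr36b, Gr36c, Gr58a, Gr58b, Gr58c and Gr98c at 5.5 to 6 h. The members of the older age are not separate observations. Gr22b to Gr22d shared a peak of 1540 bp, Gr36b and Gr36c a peak of 381 bp, and Gr58a to Gr58c a peak of 471 bp. Gr98c shared the 1548 bp peak of Gr98b.

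The members with H3K27me3 in all 4 lists were Gr59a to Gr59d and Gr89a, 5 genes at 3 loci, or 8.33% of members against 11.8% of all genes. Gr59d (2R, 23103941 to 23105169) was the only member with at least 50% of its window covered in every list, against 0.703% of all genes, and Gr59c beside it shared the peaks. The Gr59d window held 2737 and 2895 bp in w1118, where HisC had 2880 and 2627 bp, so the genotypes were close. Gr59a had 1504 and 1494 bp in w1118 but 782 and 937 bp in HisC, and Gr59b 2028 and 1916 bp but 1316 and 1358 bp. With Gr63a these made 3 members with fewer bp in HisC at both ages, 5.00% against 8.89% of all genes. The nearest w1118 H3K27me3 peak of at least 5 kb lay 4.98 to 10.2 kb from Gr59a to Gr59d, 14.0 to 14.4 kb from Gr63a and 23.3 to 51.7 kb from Gr89a. Other members lay as near to such a peak and had no H3K27me3 in w1118. Among these were the Gr64 genes, 5.38 to 14.4 kb away at 5.5 to 6 h, Gr47b, 15.0 kb away at 4.5 to 5 h, and Gr43a, 17.7 and 17.9 kb away. At 5.5 to 6 h Gr33a, Gr36a to Gr36c, Gr77a and Gr98a lay 39.1 to 50.2 kb away, nearer than Gr89a at 51.7 kb. No H3K27me3 was listed in any list for 24 members, 40.0% against 50.4% of all genes.

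The active histone H3 marks were much rarer over gustatory receptor genes than over genes in general. H3K4me3 touched 11, 10 and 10 windows in w1118 at the 3 ages, or 18.3%, 16.7% and 16.7% of members, against 60.9%, 57.2% and 58.1% of all genes. In HisC it touched 16, 19 and 19 windows, or 26.7%, 31.7% and 31.7%, against 62.7%, 65.4% and 64.6%. The HisC H3K4me3 lists also held more peaks, 12294, 8613 and 8991 against 6475, 5336 and 5728 in w1118. The part of list size in these differences was not tested. H3K36me3 touched 20 and 19 windows in w1118, against 64.1% and 63.6% of all genes, and 28 and 22 in HisC, against 67.8% and 66.3%. H3K27ac, found at active promoters and enhancers, touched 15 and 16 windows in w1118, against 63.9% and 63.3% of all genes, and 14 and 13 in HisC, against 59.8% and 60.5%. Every one of these counts is below 50% of the 60 members.

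Most active H3 peaks in the windows lay at the neighbours. Among the 22 members with no other protein-coding gene in the window, w1118 had no H3K4me3 peak at any age and no H3K36me3 peak at either. HisC had H3K4me3 at 2, 2 and 1 of the 22, namely at Gr93a and Gr93d, at Gr64b and Gr64c, and at Gr93d. H3K36me3 in HisC was listed at Gr59d and Gr93a at 4.5 to 5 h, over 763 and 281 bp, and at Gr23a at 5.5 to 6 h, over 254 bp. H3K27ac was listed at Gr93a in both genotypes, over 368 and 517 bp in w1118 with 319 and 671 bp in HisC, and at Gr93d in HisC at 5.5 to 6 h. Receptor gene bodies made up 39.4% of the window bases, yet in w1118 they held 3.47%, 5.79% and 6.94% of the bases under H3K4me3 at the 3 ages, while other genes held 81.4%, 84.1% and 83.0%. Each of the 12 w1118 H3K4me3 peaks at 4.5 to 5 h, and each of the 12 at 5.5 to 6 h, touched another protein-coding gene or lay within 500 bp of its end. In HisC 23.6%, 26.4% and 20.1% of the H3K4me3 bases lay in receptor gene bodies, where bases shared with a host gene count as receptor gene.

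**Figure D4:**
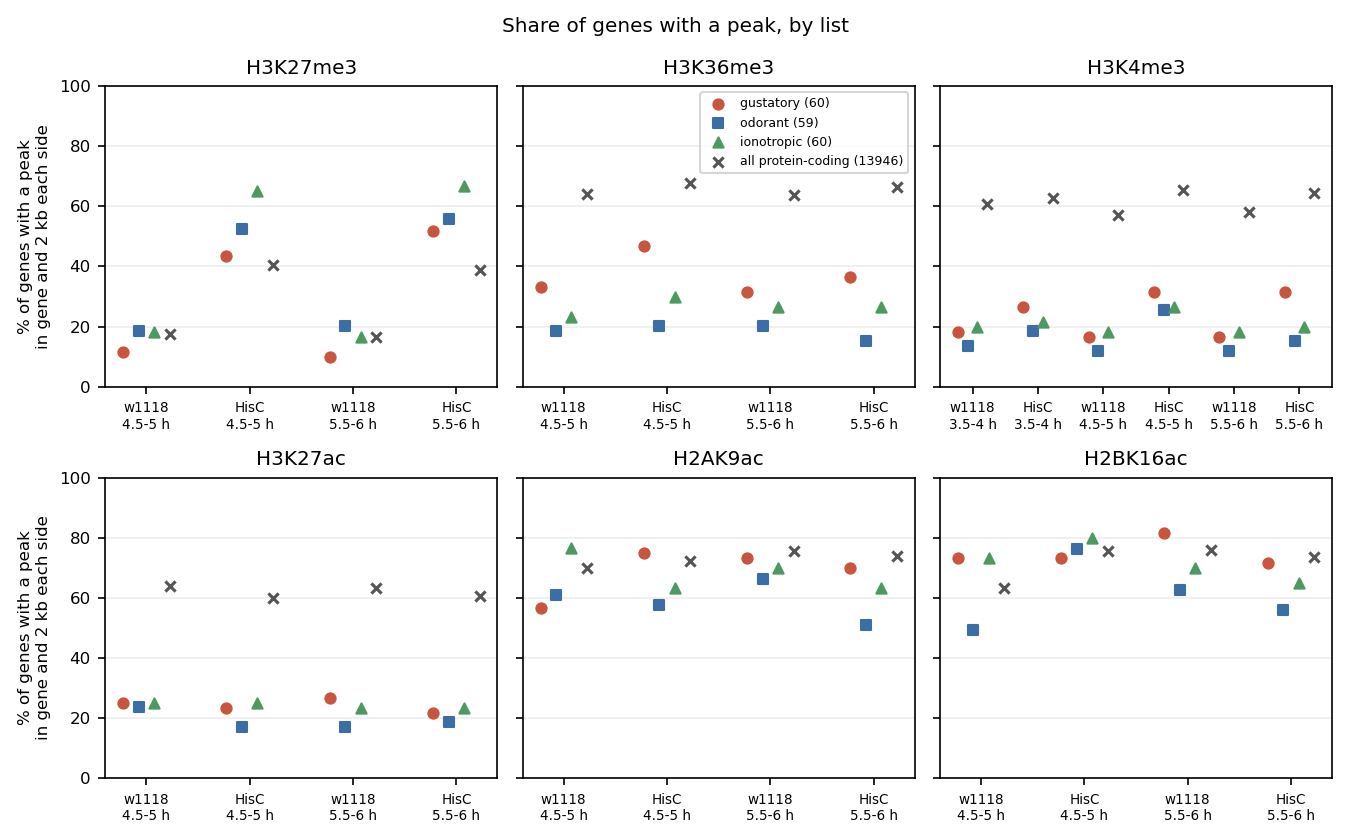
Percent of genes with a peak in the gene and 2 kb on each side (y axis), by mark (panels) and list (x axis), for the 60 gustatory, 59 odorant and 60 ionotropic receptor genes and all 13946 protein-coding genes. The receptor families lie well below all genes for H3K36me3, H3K4me3 and H3K27ac, and nearer to them for H2AK9ac and H2BK16ac.

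**Figure D5:**
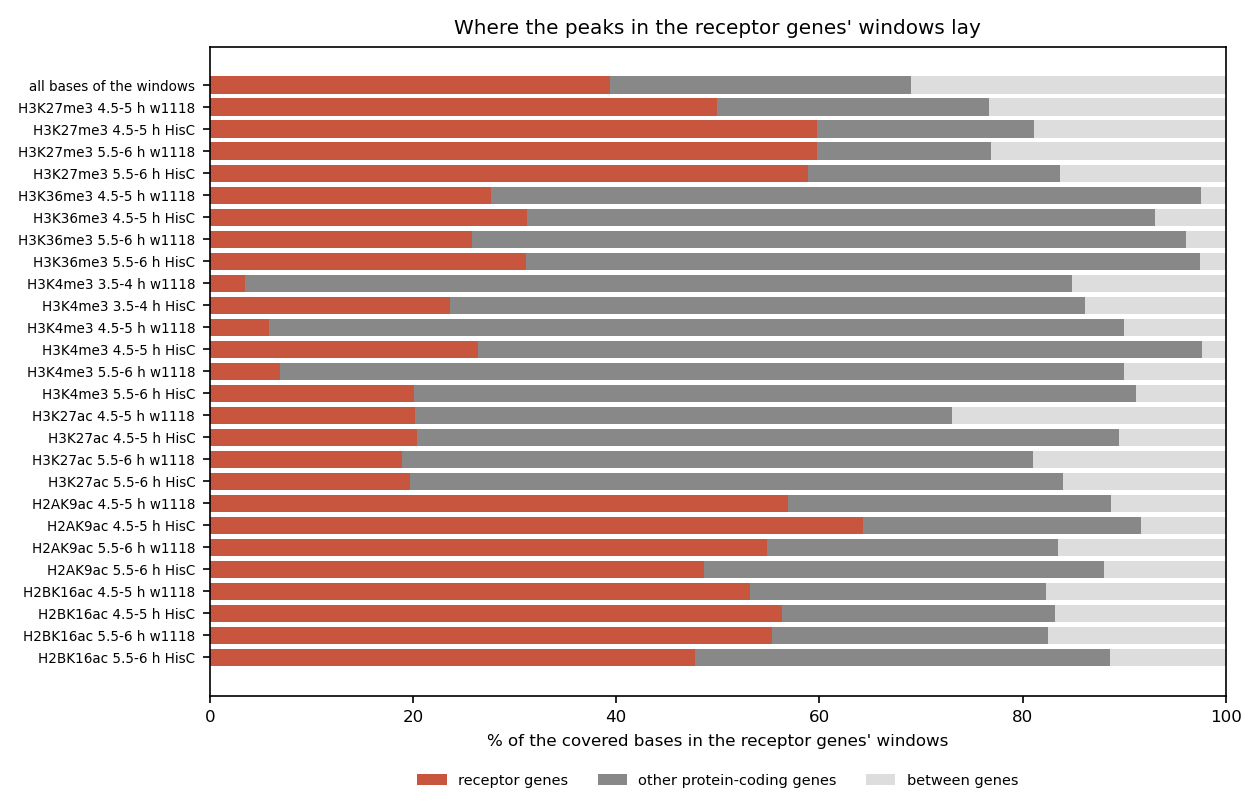
Share of the covered bases within the gustatory receptor windows (x axis, percent) that lay in receptor genes, in other protein-coding genes or between genes, by list, with the same shares of all window bases for comparison. H3K4me3 in w1118 has the smallest receptor gene share, 3.47% to 6.94%, and H3K27me3, H2AK9ac and H2BK16ac have the largest.

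H3K4me3 in HisC alone at both later ages was found at 5 members, Gr8a, Gr39a, Gr58c, Gr61a and Gr63a, 8.33% against 5.14% of all genes. All 5 had another gene in the window, and none was left once bases in or within 500 bp of other genes were taken out. Gr39a, inside Mondo, had 0 bp in w1118 at every age, and 1417, 395 and 869 bp in HisC. At Gr61a it was 0 bp in w1118, but 662, 572 and 669 bp in HisC, on JMJD5. Gr8a had 0 bp in w1118, but 303, 520 and 431 bp in HisC, on CG12121. The p53 gene, which holds Gr94a, was marked in both genotypes, with 962, 1016 and 1204 bp of the Gr94a window in w1118, and 1452, 1285 and 1658 bp in HisC. Gr47b and Gr59f also had H3K4me3 in both genotypes, with 424 and 433 bp and with 576 and 992 bp more in HisC at the later ages. At 3.5 to 4 h 6 members had it in HisC alone, 10% against 6.26% of all genes.

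Gr5a was the only member with H3K4me3 in w1118 alone at both later ages, 1.67% against 0.638% of all genes. Its window held 1345, 783 and 785 bp in w1118 over the 3 ages and 0 bp in HisC at each, on Tre1, a receptor gene that guides germ cell migration. H3K27ac on Tre1 covered 1292 and 1299 bp of this window in w1118, but 265 and 0 bp in HisC. H2BK16ac, which lay on Gr5a itself and toward CG42449, covered 2080 and 604 bp in w1118, with no peak in HisC. The H3K4me3 and H3K27ac values of Gr5a thus belong to Tre1, and the H2BK16ac values mostly to the receptor gene and the space after it.

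H3K27ac was listed in HisC alone at both ages for Gr58c, Gr61a and Gr64f, 5.00% against 3.61% of all genes, and in w1118 alone for Gr43a, Gr59a, Gr59e and Gr63a, 6.67% against 5.23%. Both shares were near the background. At Gr61a it was 731 and 835 bp in HisC, on JMJD5 and CG13887, and at Gr58c 675 and 754 bp. Gr97a, whose H3K27ac lay on Tsp97E and in w1118 also on CG5521, had 1968 and 2514 bp in w1118, but 1038 and 1261 bp in HisC. Gr94a had 442 and 2066 bp in w1118, but 2353 and 2541 bp in HisC, inside p53 or within 500 bp of its end.

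H3K36me3 was listed at more receptor windows in HisC than in w1118 at both ages, 28 against 20 and then 22 against 19. The HisC lists of this mark also held more peaks, 7708 and 7479 against 6093 and 5433. Few members had H3K36me3 in HisC alone at both ages. At 4.5 to 5 h 9 members had it in HisC alone, 15% against 7.97% of all genes, and 1 in w1118 alone, against 4.22%. At 5.5 to 6 h the counts were 3, against 7.82%, and 0, against 5.15%. Gr77a, inside CG13252, was the only member with it in HisC alone at both ages, over 533 and 268 bp, 1.67% against 4.09% of all genes, and none had it in w1118 alone, against 1.77%. The covered length was higher in HisC at both ages for 9 members, 15% against 13.7% of all genes, and lower for 6, 10% against 36.3%. Gr43a had 3209 and 4449 bp in w1118 but 1322 and 2781 bp in HisC, where the mark ran over the RNA helicase gene Dhx15 and Gr43a. Gr47b had 2869 and 2894 bp in w1118 but 1519 and 785 bp in HisC, and its w1118 peaks ran over san and ix.

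The acetylated forms of H2A and H2B were listed over gustatory receptor genes about as often as over genes in general. H2AK9ac touched 34 and 44 windows in w1118, or 56.7% and 73.3% of members against 69.9% and 75.5% of all genes. In HisC it touched 45 and 42, or 75.0% and 70.0% against 72.3% and 73.8%. H2BK16ac touched 44 and 49 windows in w1118, or 73.3% and 81.7% against 63.4% and 76% of all genes, and 44 and 43 in HisC, or 73.3% and 71.7% against 75.6% and 73.6%. These marks were also listed over receptor genes with no other protein-coding gene in the window, some of which share peaks with other receptor genes. H2BK16ac was listed at 18 and 20 of these 22 in w1118 and at 17 and 14 in HisC. H2AK9ac was listed at 7 and 12 of them in w1118 and at 14 and 11 in HisC. For H2AK9ac in w1118 these were 31.8% and 54.5%, against 71.1% and 84.2% of members beside another gene. For H2BK16ac in w1118 they were 81.8% and 90.9%, against 68.4% and 76.3%. Of the bases under H2AK9ac and H2BK16ac, 47.8% to 64.3% lay in receptor gene bodies. H2BK16ac was the only mark in any list at Gr33a, Gr36a, Gr92a, Gr93b and Gr93c, and every member had at least 1 mark.

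H2BK16ac covered fewer bases in HisC than in w1118 at both ages for 20 members, 33.3% against 16.8% of all genes, and more for 12, 20.0% against 25.3%. The 20 members lay at 11 loci, and 2 of 59 odorant and 13 of 60 ionotropic receptor genes met the same rule. Gr22b had 873 and 1748 bp in w1118 but 0 and 265 bp in HisC. Gr39b had 875 and 664 bp in w1118 and no peak in HisC. The highest differences in the other direction were those of Gr59d and Gr59c, and Gr59d had 2407 and 1215 bp in w1118, but 3734 and 2928 bp in HisC. Gr5a, Gr22a and Gr39b had the mark in w1118 alone at both ages, 5.00% against 2.29% of all genes, and Gr9a and Gr64f in HisC alone, 3.33% against 3.81%.

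Over the receptor windows, H2AK9ac had the least overlap of the 6 marks between the ages in w1118. There 24.8% of its bases at 4.5 to 5 h and 20.0% of those at 5.5 to 6 h were shared between the ages, against 40.5% and 36.6% over the genome, where H2BK16ac was as low at 40.3% and 33.3%. For H3K4me3 the shares over the receptor windows were 93.5% and 91.9%. Between genotypes, 43.6% of the w1118 and 33.9% of the HisC H2AK9ac bases were shared at 4.5 to 5 h, and 25.8% and 29.0% at 5.5 to 6 h. Between the ages in HisC the shares were 47.8% and 55.9%. The w1118 lists of the 2 ages thus differed more than the lists of the 2 genotypes at either age. Whether the differences below exceed such change between lists was not tested. Gr94a had the highest same-direction difference in H2AK9ac, with 602 and 528 bp in w1118, but 1956 and 2748 bp in HisC. Gr21a came next with 527 and 614 bp in w1118, but 2618 and 1815 bp in HisC, mostly on the gene body that also bore HisC H3K27me3. Gr28b was lower in HisC, with 1720 and 1689 bp in w1118, but 772 and 325 bp in HisC. Only Gr43a had the mark in HisC alone at both ages, 1.67% against 2.45% of all genes, and no member had it in w1118 alone, against 2.41%. At Gr43a the younger age rested on the end of a 3148 bp peak on cos and Dhx15. The older age rested on a 444 bp peak at the opposite end of the gene. With at least 200 bp covered, 0 members had H2AK9ac in HisC alone at both ages.

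Over the receptor windows, H3K27me3 shared more bases with active H3 marks in HisC than in w1118. In w1118 0 bp of H3K27me3 lay under H3K4me3 or H3K27ac at either age, and 9 and 0 bp under H3K36me3. These w1118 values rest on only 6 and 5 H3K27me3 peaks at 5 and 4 loci, against 23 and 22 peaks at 18 and 16 loci in HisC. In HisC 14.5% and 6.65% of the H3K27me3 bases also lay under H3K4me3, 11.9% and 7.97% under H3K27ac and 18.2% and 6.69% under H3K36me3. Over the genome the shares with H3K4me3 were 3.67% and 3.92% in w1118, and 12.7% and 10.1% in HisC, and with H3K36me3 6.48% and 6.33%, then 16.6% and 12.3%. With H3K27ac they were 9.26% and 11.0% in w1118 and 11.5% and 10.3% in HisC, so at the older age that share was not higher in HisC over the genome. With H2BK16ac the overlap was wider, 50.2% and 30.2% of H3K27me3 bases in w1118, and 71.6% and 30.4% in HisC, against 16.9% and 17.6% and then 39.3% and 27% over the genome. With H2AK9ac it was 40.1% and 20.6% of H3K27me3 bases in w1118, and 60.1% and 37.6% in HisC. Over the genome these H2AK9ac shares were 20.0% and 16.3% in w1118, and 33.6% and 23.0% in HisC. At Gr47a in young HisC embryos, the H3K27me3 peak of 2092 bp and an H2BK16ac peak of 1922 bp started at the same base.

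Genes outside the family, listed for the taste pathway, were read in the same way, though not all of them act with gustatory receptors. Of 20 listed, which include signalling genes, other taste channels and neuron selector genes, 4 had H3K27me3 in w1118 at each age, or 20% against 17.5% and 16.5% of all genes. In HisC 10 and then 8 had it, or 50% and 40% against 40.5% and 38.9%. Covered length was higher in HisC at both ages for 4 of them, 20% against 22.9%, and lower for 2, 10% against 8.89%, so these shares were near the background. TrpA1, a heat and irritant channel gene, had 0 bp in w1118, but 1542 and 2571 bp in HisC. Dh44-R1, a neuropeptide receptor gene, had 0 bp in w1118, but 886 and 2716 bp in HisC. The lower ones were selector genes with longer windows and more H3K27me3 bp in w1118 than any receptor window. Poxn, needed to make taste bristles, had 10384 and 11141 bp in w1118, but 9335 and 8587 bp in HisC. The gene acj6, for a POU factor of chemosensory neurons, had 15334 and 14432 bp in w1118, but 8789 and 10996 bp in HisC. By share of the window in w1118, Poxn had 84.0% and 90.1%, more than any member. On that measure acj6 had 46.7% and 44.0%, less than Gr59d with 52.3% and 55.4%.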

How the data were processed

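CUT&Tag peak lists of 6 histone marks were used as deposited. Each holds the positions of the peaks the authors called, with no height or score, for 2 to 3 pooled libraries. The submitters' processing notes name cutadapt 1.17 and Trim Galore 0.6.6, deepTools 3.3.1, SAMtools 1.9, Bowtie2 2.3.4.2 and the genome build dm6. The peak caller is not given in the sources used here, and depth is unknown. By their names, H3K27ac and H3K4me3 lists are narrow peaks and the other marks broad peaks, and the name of the HisC H3K4me3 list at 3.5 to 4 h states an exclusion without saying of what. Groups came from the sample labels, and 0 columns were left unused. Gene positions came from the RefSeq table of Release 6, which holds no strand.

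Peaks within a list did not overlap, and covered bp per gene and 2 kb on each side were counted with Python 3.11.15, pandas 2.3.3 and numpy 2.4.6 and drawn with matplotlib 3.10.9. The counting was tested on simulated data. At least 1 bp counted as a peak. No test, error or interval could be had from 1 pooled list a group. The members and lists were chosen with earlier results of these data known. Genes named were those of known ligand or role, up to 10 (H3K27me3) or 5 (other marks) per direction with the highest smaller difference at both ages, those at least 50% covered by H3K27me3 throughout, and those with opposite differences of at least 1000 bp. Neighbours, single-age members and members of short lists were named after their values were seen.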

Additional observations from a re-analysis of the deposited data

Results flagged for a closer look

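At Gr47a and Gr64a the difference in H2AK9ac between HisC and w1118 went in opposite directions at the 2 ages, by at least 1000 bp at each. This difference between ages was not tested, because each value comes from 1 pooled list. At Gr47a, HisC minus w1118 was 1906 bp at 4.5 to 5 h and -1336 bp at 5.5 to 6 h. At Gr64a it was 3044 bp and then -1213 bp.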

How the results depend on the processing

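No paired analysis was possible because each list pools its libraries and carries no replicate number, and leaving out single replicates was not possible for the same reason. A planned promoter motif search was not run. Of 91 recounts of members listed in a single genotype at both later ages (and of H3K4me3 at 3.5 to 4 h), 45 stayed within 1.5 times the main count and 46 did not. Most main counts are 5 or lower, where 1 or 2 genes make such a change, and the cause was not tested. The recounts around the gene midpoint, those without bases in or near other genes and those at 3.5 to 4 h were chosen after seeing the data.

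Below, brackets give main counts and, as percentages, the shares of all genes that met the changed rule. In gene bodies alone, HisC-only counts were 8 for H3K27me3 (main 17, 12.0%), 0 for H3K36me3 (1, 5.16%), 2 for H3K4me3 (5, 4.52%), 3 for H3K4me3 at 3.5 to 4 h (6, 5.87%), 1 for H3K27ac (3, 3.26%) and 0 for H2AK9ac (1, 3.16%). The w1118-only counts there were 1 for H3K27me3 (0, 1.48%), 0 for H3K4me3 (1, 1.57%), 1 for H3K27ac (4, 8.83%), 1 for H2AK9ac (0, 3.09%) and 5 for H2BK16ac (3, 2.42%). With 5 kb on each side, HisC-only counts were 3 for H3K4me3 (5.24%), 5 for H3K27ac (2.78%), 0 for H2AK9ac (1.18%) and 1 for H2BK16ac (2, 1.52%). The w1118-only counts were 2 for H3K4me3 (0.466%) and 1 for H2BK16ac (1.25%). With at least 200 bp covered, HisC-only counts were 2 for H3K36me3 (4.11%) and 0 for H2AK9ac (2.53%), and the w1118-only count of H3K27ac was 2 (5.49%). With peaks of at least 500 bp, HisC-only counts were 11 for H3K27me3 (14.0%), 0 for H3K36me3 (3.24%), 2 for H3K4me3 (2.95%) and 3 at 3.5 to 4 h (4.07%). The w1118-only counts were 1 for H3K27me3 (1.71%), 1 for H3K27ac (6.72%) and 4 for H2AK9ac (3.89%). With equal numbers of the widest peaks, HisC-only counts were 5 for H3K27me3 (9.53%), 0 for H3K36me3 (2.57%), 2 for H3K4me3 (2.03%), 3 at 3.5 to 4 h (3.45%) and 1 for H2BK16ac (4.36%). The w1118-only counts were 1 for H3K27me3 (3.07%) and 2 for H3K4me3 (2.77%). In 5 kb around the midpoint, HisC-only counts were 2 for H3K36me3 (4.28%) and 0 for H2AK9ac (3.33%). Without bases in or within 500 bp of other genes, HisC-only counts were 10 for H3K27me3, 4 for H3K36me3, 0 for H3K4me3, 3 at 3.5 to 4 h, 0 for H3K27ac, 0 for H2AK9ac and 1 for H2BK16ac, and w1118-only counts were 0 for H3K4me3, 1 for H3K27ac and 2 for H2AK9ac. The share of all genes was not counted for this last rule.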
